A study of Mus musculus with 9 samples.

Results

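Txnip, Arrdc4 and Arrdc3, 3 alpha-arrestins, and Mlxip, Mlxipl and Mlx, the genes of the glucose-responsive transcription factors that are known to act on Txnip and Arrdc4, were examined in retinal explants cultured with or without 2-deoxy-D-glucose (2-DG). The 6 genes were taken by symbol from a table of 55487 genes, and all 6 passed the filter on low counts that left 21049 genes for testing. The tissue was retina from postnatal day 28 C57BL/6J wild-type animals, freed of the sclera and the pigment epithelium and kept for 48 h in Neurobasal-A medium with 5 mM glucose (control, 5 libraries) or with 5 mM glucose and 20 mM 2-DG (4 libraries). The protocol, shared by both groups, adds 1 h in Krebs' Ringer medium for the lactate and blot samples, and whether the RNA samples had this hour is not plain from it. Libraries are called biological replicates in the labels, which do not say whether a library came from 1 retina, 1 animal or a pool, so p-values measure the spread between these samples.

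MondoA, encoded by Mlxip, and ChREBP, encoded by Mlxipl, are basic helix-loop-helix leucine zipper proteins that bind DNA together with their partner Mlx. Phosphorylated hexoses raise their activity, and 2-DG, which hexokinase phosphorylates but glycolysis cannot carry further, is known to activate MondoA. TXNIP binds thioredoxin and, like ARRDC4, lowers glucose uptake, and both genes are classical MondoA targets. ARRDC3 is a related alpha-arrestin that acts in receptor trafficking.

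The letters before the start of Txnip, Arrdc4, Mlxipl and Mlx are shown because MondoA, ChREBP and Mlx bind E-box-like elements. These are the members with a CACGTG or CACGAG box within 250 bases upstream of the RefSeq start. Capitals mark the E-box CACGTG and the CCAAT box (CCAAT, or ATTGG on the other strand), and in Txnip also the variant box CACGAG. The windows are given 5′ to 3′ on the strand of the gene, in GRCm38.p6. Txnip lies at chr3:96557707-96557956 (plus strand), Arrdc4 at chr7:68749239-68749488 (minus strand), Mlxipl at chr5:135089640-135089889 (plus strand) and Mlx at chr11:101087040-101087289 (plus strand).
Txnip: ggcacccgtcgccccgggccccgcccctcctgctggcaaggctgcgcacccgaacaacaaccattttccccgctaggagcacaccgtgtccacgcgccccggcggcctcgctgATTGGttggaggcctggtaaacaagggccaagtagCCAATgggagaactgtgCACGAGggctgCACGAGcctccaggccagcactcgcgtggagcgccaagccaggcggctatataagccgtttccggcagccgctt
Arrdc4: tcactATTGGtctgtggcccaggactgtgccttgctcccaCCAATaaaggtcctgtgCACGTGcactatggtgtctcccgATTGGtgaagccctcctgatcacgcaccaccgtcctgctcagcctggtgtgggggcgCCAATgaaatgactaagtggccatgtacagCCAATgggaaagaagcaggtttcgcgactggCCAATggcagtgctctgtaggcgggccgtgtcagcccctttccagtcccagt
Mlxipl: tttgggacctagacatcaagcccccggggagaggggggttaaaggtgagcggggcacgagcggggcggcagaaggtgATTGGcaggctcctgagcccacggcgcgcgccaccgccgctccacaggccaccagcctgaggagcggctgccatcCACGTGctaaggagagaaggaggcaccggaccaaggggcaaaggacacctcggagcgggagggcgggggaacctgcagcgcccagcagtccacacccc
Mlx: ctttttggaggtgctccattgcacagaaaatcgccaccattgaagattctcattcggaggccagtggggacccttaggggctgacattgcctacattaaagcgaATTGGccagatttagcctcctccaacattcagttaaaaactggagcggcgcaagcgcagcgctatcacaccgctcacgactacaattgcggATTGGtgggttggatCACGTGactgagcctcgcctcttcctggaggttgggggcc

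The Txnip window held 2 CACGAG boxes, at 85 to 80 and 74 to 69 bases before the start, with 5 bases between them. Of 32851 windows of this length, 5.37% held a CACGAG box on either strand and 0.00304% (1 window, that of Txnip) held such a pair. The Mlxipl window held 1 CACGAG box, at 196 to 191 bases before the start, left in lower case above. This box was searched for after the Txnip window had been seen. CACGTG occurred in 6.02% of windows, and 1 copy each was found in Arrdc4 (193 to 188 bases before the start), Mlxipl (98 to 93) and Mlx (40 to 35). CCAAT occurred in 33.8% of windows. Arrdc4 held 6 CCAAT boxes, Txnip 2, Mlx 2, Mlxip 2, Mlxipl 1 and Arrdc3 1. The relaxed carbohydrate response element, found in 0.0974% of windows, and a pair of CACGTG boxes with 5 bases between them, found in 0%, had no match in the members' windows. A match is a run of letters and does not show that a protein was bound.

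Libraries held 11317734 to 51802249 estimated counts, so that 3 counts correspond to 0.0556 to 0.255 CPM, the counts scaled to a common library size. Some libraries stood apart in their cell type markers: control 2 had the highest summed CPM of 8 markers of rods, the most abundant cells of the mouse retina (41430, against 4765 to 15715 in the other 8 libraries) and, with 2-DG 3, of 7 cone markers (575 and 798, against 64.7 to 130 in the other 7). Markers of the pigment epithelium, 6 in all, summed to 94.0 CPM in 2-DG 3 and 27.9 CPM in 2-DG 4, against 3.57 to 18.1 CPM in the other 7 libraries, and their part in the results was not tested. The sum of 7 endothelium and pericyte markers was 331, 495, 533, 1084 and 2005 CPM in control 1 to 5 and 568, 463, 1016 and 2508 CPM in 2-DG 1 to 4. In bulk tissue, fewer cells of a type and less RNA per cell cannot be told apart.

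No member differed between control and 2-DG explants beyond the spread between libraries. At an adjusted p under 0.05 in edgeR's quasi-likelihood test, 0 of 6 members were called, beside 0% of all genes tested. At an unadjusted p under 0.05 there were also 0 of 6, where 7.25% of all genes passed (2.42% higher and 4.83% lower in 2-DG). The groups overlapped in all 6 members, and they did not overlap in 2.93% of all genes. The 6 log2 fold changes had a median of 0.06, against −0.01 over all genes tested, and 5 were above 0.

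**Figure D1:**
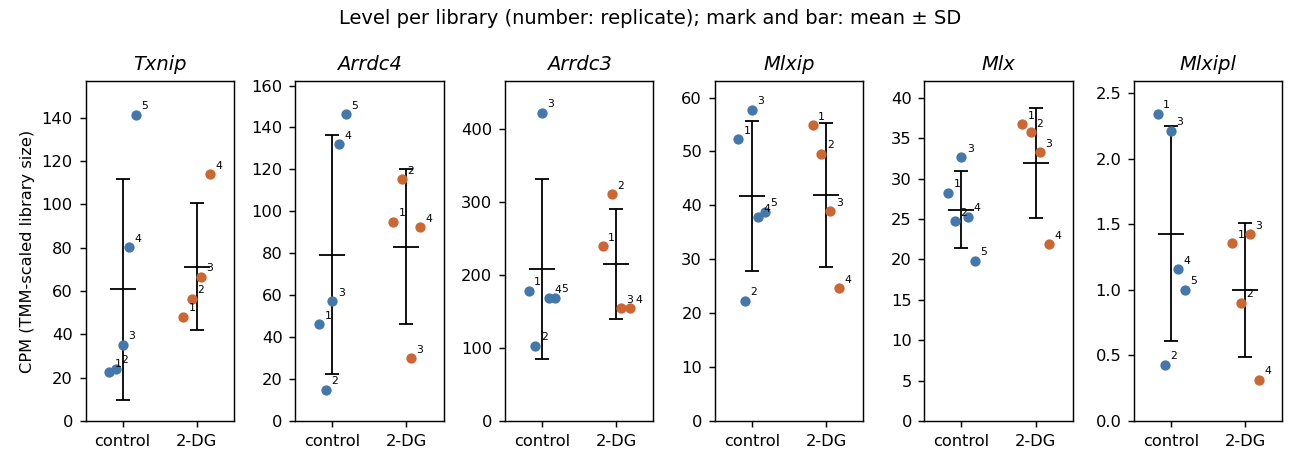
Level of each member in CPM on the TMM-scaled library size (y axes start at 0 and differ between panels) in control (blue, n = 5) and 2-DG libraries (orange, n = 4). Points are libraries with their replicate numbers, and the mark and bar give mean ± SD. In every panel the 2 groups overlap, and Txnip spans 22.6 to 141 CPM within the control group alone.

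Txnip (ENSMUSG00000038393, chromosome 3, 96557957 to 96561883, plus strand, GRCm38) measured 22.6, 24.1, 35.2, 80.1 and 141 CPM in control 1 to 5 and 48.1, 56.5, 66.6 and 114 CPM in 2-DG 1 to 4. Control 1 to 3 lay below every 2-DG library, whereas control 5 lay above all of them. The means were 60.7 ± 50.9 CPM (SD, n = 5) and 71.3 ± 29.4 CPM (SD, n = 4). In edgeR this gave a log2 fold change of 0.23 ± 0.54 (SE) at an adjusted p of 0.934. Its 95% interval, −0.97 to 1.44, reached from a fold of 0.509 to one of 2.71, so these libraries do not exclude a fall or a rise within these limits. The estimate moved with single libraries: it was 0.80 without control 5 (unadjusted p = 0.101 in edgeR) and −0.09 without 2-DG 4. In a fit with the replicate number as a block it was 0.94 (unadjusted p = 0.00327, adjusted p = 0.525 in edgeR). The labels do not say whether equal numbers pair the samples.

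Arrdc4 (ENSMUSG00000042659, chromosome 7, 68736995 to 68749241, minus strand) measured 46.3, 14.8, 57.1, 132 and 146 CPM in control 1 to 5 and 95.1, 115, 30.0 and 92.4 CPM in 2-DG 1 to 4. The lowest library of each group was one of the 2 with high cone markers, control 2 and 2-DG 3. Over the 9 libraries Arrdc4 had an r of −0.75 with the cone marker sum (exact permutation p = 0.0297, adjusted p = 0.179 over 24 relations) and a rho of −0.27 (exact permutation p = 0.4933, adjusted p = 0.658). Without the 2 libraries farthest from the median of that sum r was 0.52, so the relation rested on those libraries. It was not a planned test. The means were 79.3 ± 57.0 CPM (SD, n = 5) and 83.2 ± 36.9 CPM (SD, n = 4), with a log2 fold change of 0.07, a standard error of 0.60 and a 95% interval of −1.25 to 1.38 (adjusted p = 0.986 in edgeR). The estimate was −0.20 without control 2 and 0.40 without control 5.

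Arrdc3 (ENSMUSG00000074794, chromosome 13, 80883384 to 80896042, plus strand) measured 179, 103, 422, 168 and 169 CPM in control 1 to 5 and 239.5, 310, 154 and 154 CPM in 2-DG 1 to 4. Control 3 was higher than every other library. The log2 fold change was 0.04 with a 95% interval of −0.84 to 0.93 (adjusted p = 0.986 in edgeR), and it was 0.47 without control 3. Of the remaining alpha-arrestins, Arrdc1 had a log2 fold change of 0.21 and Arrdc2 one of −0.35, with 95% intervals of −0.52 to 0.95 and −1.41 to 0.70. Arrdc5 did not pass the filter.

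Among the transcription factor genes, Mlxip (ENSMUSG00000038342, chromosome 5, 123394798 to 123457932, plus strand) measured 52.3, 22.3, 57.7, 37.8 and 38.8 CPM in control 1 to 5 and 54.9, 49.6, 38.9 and 24.7 CPM in 2-DG 1 to 4. The lowest and the highest library were both in the control group. The log2 fold change was 0.01 with a 95% interval of −0.69 to 0.71. Mlx (ENSMUSG00000017801, chromosome 11, 101087277 to 101092207, plus strand), the shared partner, measured 28.3, 24.7, 32.7, 25.3 and 19.8 CPM in control and 36.8, 35.7, 33.3 and 21.9 CPM in 2-DG libraries. Its 2-DG 1 to 3 lay above every control library and 2-DG 4 below all but control 5. Mlx had the narrowest interval of the members, with a log2 fold change of 0.29 and limits of −0.22 and 0.79 (adjusted p = 0.815 in edgeR).

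Mlxipl (ENSMUSG00000005373, chromosome 5, 135089890 to 135138382, plus strand) had the fewest counts of the members, 6.05 to 77.1 estimated counts per library, with the lowest numbers in control 2 and 2-DG 4. It measured 2.35, 0.43, 2.21, 1.16 and 1.00 CPM in control 1 to 5 and 1.36, 0.90, 1.43 and 0.31 CPM in 2-DG 1 to 4. The log2 fold change was −0.52 with a 95% interval of −1.83 to 0.78 (adjusted p = 0.858 in edgeR). The transcript Mlxipl-210, which alone begins at the upstream start whose window is shown above, had 3.00 estimated counts over all 9 libraries. The next annotated start lies 17001 bases downstream, and its window held neither an E-box nor a CCAAT box.

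Divided by exon length, the median level over the 9 libraries was 26.9 CPM per kb for Arrdc3, 22.9 for Arrdc4, 18.1 for Txnip, 14.1 for Mlx, 4.67 for Mlxip and 0.209 for Mlxipl. Mlx was above Mlxip, and Mlxip above Mlxipl, in 9 of 9 libraries. Arrdc3 was above Arrdc4 in 7, and Arrdc4 above Txnip and Txnip above Mlx in 5 each, so the order of the alpha-arrestins and Mlx was not fixed across libraries.

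**Figure D2:**
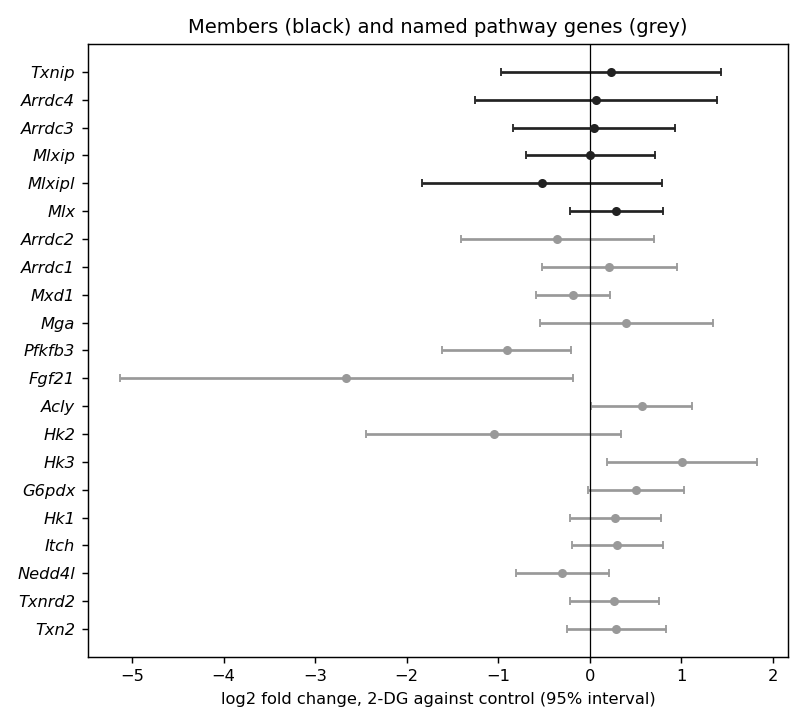
Log2 fold change of 2-DG against control from edgeR's quasi-likelihood test with its 95% interval, for the 6 members (black) and the pathway genes chosen by the naming rule (grey). All 6 member intervals cross 0, and that of Fgf21 is the widest drawn.

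The pathway lists were read beside the same shares over all genes. Of 19 tested genes on a list of other MondoA and ChREBP targets, 0 passed the adjusted threshold and 3 (15.8%) had an unadjusted p under 0.05, 1 higher and 2 lower. Over all genes 7.25% did, 2.42% higher and 4.83% lower. The list median was −0.08, against −0.01 over all genes tested. Pfkfb3, which makes the activator of phosphofructokinase fructose 2,6-bisphosphate, measured 177, 139, 194, 349 and 376 CPM in control and 129, 125, 121 and 152 CPM in 2-DG libraries. All 4 2-DG libraries lay below the control mean and only 2-DG 4 reached into the control range (log2 fold change −0.91, standard error 0.32, unadjusted p = 0.0167 and adjusted p = 0.602 in edgeR). Fgf21, which encodes a fasting hormone, was rare, at 0.65, 0, 0.76, 1.66 and 2.39 CPM in control and 0, 0.09, 0.04 and 0.51 CPM in 2-DG libraries (adjusted p = 0.670 in edgeR). Acly, which supplies cytosolic acetyl-CoA, had a log2 fold change of 0.56 (adjusted p = 0.689 in edgeR), and Hk2, a hexokinase, one of −1.05 with control 2 at 596 CPM against 55.2 to 230 CPM elsewhere.

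On the list of hexose uptake and phosphorylation, 1 of 17 tested genes (5.88%) had an unadjusted p under 0.05, beside 7.25% of all genes. It was Hk3, a hexokinase, with a log2 fold change of 1.00 and values of 1.86 to 4.46 CPM in control and 3.87 to 7.13 CPM in 2-DG libraries (adjusted p = 0.616 in edgeR). G6pdx, the first enzyme of the pentose phosphate pathway, had a log2 fold change of 0.51 and Hk1, the main neuronal hexokinase, one of 0.28. In the MLX and MAX network 0 of 12 tested genes had an unadjusted p under 0.05, and 6 were higher and 6 lower. Mga and Mxd1, both partners of Max, had log2 fold changes of 0.40 and −0.18. Among 12 partners of TXNIP, 0 passed either threshold and 8 were higher, among them the ubiquitin ligase Itch (0.30) and the mitochondrial Txn2 (0.29) and Txnrd2 (0.27), while the ligase Nedd4l had −0.30. Over the 62 tested genes of the 5 lists, 4 (6.45%) had an unadjusted p under 0.05, beside 7.25% of all genes.

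Of 35 transcripts of the members, 20 passed the filter, 0 were called at the adjusted threshold (0% of 62900 transcripts) and 1 had an unadjusted p under 0.05 (3.45% of all transcripts, 1.17% higher and 2.28% lower). This was Mlxip-203, annotated to undergo nonsense-mediated decay, at 7.36, 18.9, 11.8, 7.81 and 10.9 CPM in control and 5.73, 5.53, 6.50 and 1.63 CPM in 2-DG libraries. The groups did not overlap (1.87% of all transcripts did not), with a log2 fold change of −1.22 ± 0.48 (SE). With library size only or without control 2, 0 member transcripts had an unadjusted p under 0.05 in edgeR. Txnip-201 and Txnip-202 carried 51.3% and 48.0% of the gene's CPM, with log2 fold changes of −0.01 and 0.41. Arrdc4-201 and Arrdc4-202 had log2 fold changes of −0.68 and 1.05, and their standard errors were 0.75 and 0.68. Reads are divided between transcripts by estimation, and that uncertainty is not part of these errors.

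**Figure D3:**
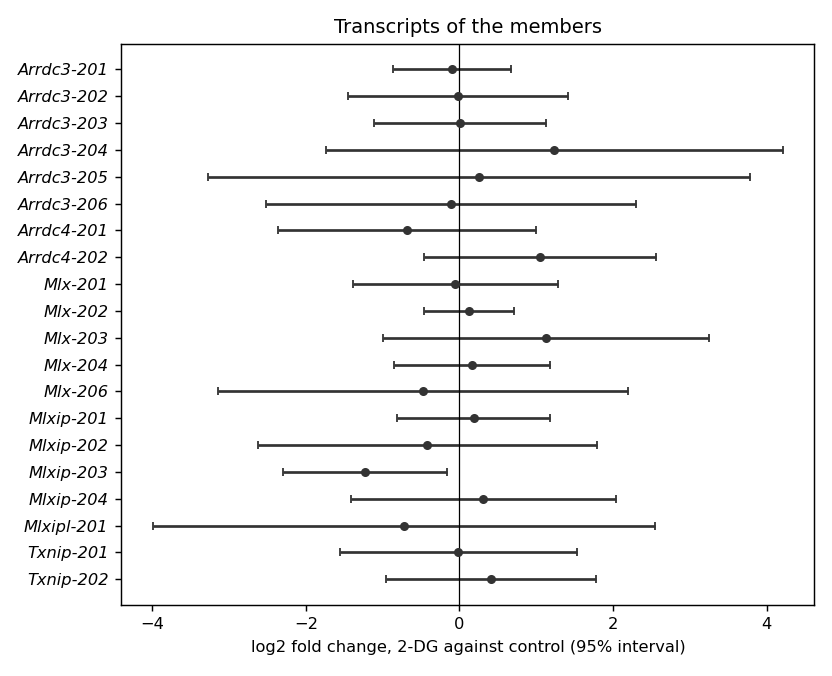
Log2 fold change of 2-DG against control with its 95% interval from edgeR for the 20 transcripts of the members that passed the filter. The interval of Mlxip-203 lies below 0, and the intervals of the other 19 cross 0.

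Ratios within a library depend little on scaling between libraries, which enters them only through the pseudocount of 1 CPM. The log2 ratio of Txnip to Arrdc4 was −1.004, 0.67, −0.68, −0.71 and −0.05 in control 1 to 5 and −0.97, −1.02, 1.13 and 0.30 in 2-DG 1 to 4. Control 2 and 2-DG 3 had the highest ratio of their groups. The difference of means was 0.22 (two-sided exact permutation p = 0.690, adjusted p = 0.810 over 3 ratios, where the smallest possible p is 0.00794). For Txnip to Arrdc3 and Arrdc4 to Arrdc3 the differences were 0.38 and 0.16, with exact permutation p of 0.643 and 0.810.

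Across the 9 libraries, Txnip and Arrdc4 had a Pearson's r of 0.68 (exact permutation p = 0.0424, adjusted p = 0.205 over 15 pairs) and a Spearman's rho of 0.67 (exact permutation p = 0.0589, adjusted p = 0.221). Without the 2 libraries farthest from the Txnip median r was 0.64. Arrdc3 and Mlxip had an r of 0.81 (exact permutation p = 0.00934, adjusted p = 0.0700) and a rho of 0.90 (exact permutation p = 0.00203, adjusted p = 0.0304), and r without 2 libraries was 0.85. For Mlxip and Mlxipl r was 0.88 (exact permutation p = 0.00369, adjusted p = 0.0553), rho was 0.77 (exact permutation p = 0.0214, adjusted p = 0.160), and r fell to 0.55 without 2 libraries. Libraries share depth and composition effects across genes.

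Txnip was highest in control 4, control 5 and 2-DG 4, the libraries with the highest vessel marker sums. With the vessel marker sum r was 0.91 (exact permutation p = 0.000829, adjusted p = 0.0199 over 24 relations) and rho was 0.88 (exact permutation p = 0.00308, adjusted p = 0.0738), and without 2 libraries r was 0.82. For other sums, r with Txnip without 2 libraries was 0.89 (rod), 0.80 (cone) and −0.69 (amacrine and horizontal). Over all libraries these were 0.06, −0.08 and −0.63. The 24 relations, of Txnip and Arrdc4 with the marker sums of 12 lists, were not planned. The 7 vessel markers did not move as one: r with Txnip was 0.94 for Cldn5, 0.89 for Cdh5 and 0.82 for Pecam1, which make up most of the sum in these libraries. It was 0.73 for Rgs5 and Pdgfrb, 0.24 for Kcnj8 and −0.01 for Kdr. In 2-DG 4 Cdh5 was at 1346 CPM, while Kdr, at 50.2 CPM, was lower than in the other 8 libraries. With that sum as a covariate, chosen after seeing the data, the log2 fold change of Txnip was 0.27 with a standard error of 0.25 (adjusted p = 0.633 in edgeR). Arrdc4 had an r of −0.89 with the sum of 7 ganglion cell markers (exact permutation p = 0.00184, adjusted p = 0.0220) and a rho of −0.78 (exact permutation p = 0.0172, adjusted p = 0.171), with r at −0.74 without 2 libraries. Of the 7 ganglion cell markers, 6 had an r below 0 with Arrdc4, from −0.88 (Nefl) to −0.55 (Nefm), and Rbpms had one of 0.38, with its highest value, 101 CPM, in control 5. Arrdc4 also had an r of −0.71 with the amacrine and horizontal marker sum (exact permutation p = 0.0299, adjusted p = 0.179). The rho was −0.77 (exact permutation p = 0.0214, adjusted p = 0.171). The highest r of Arrdc4 with a marker sum was 0.43, for skeletal muscle. The part of any cell type in these levels was not tested.

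**Figure D4:**
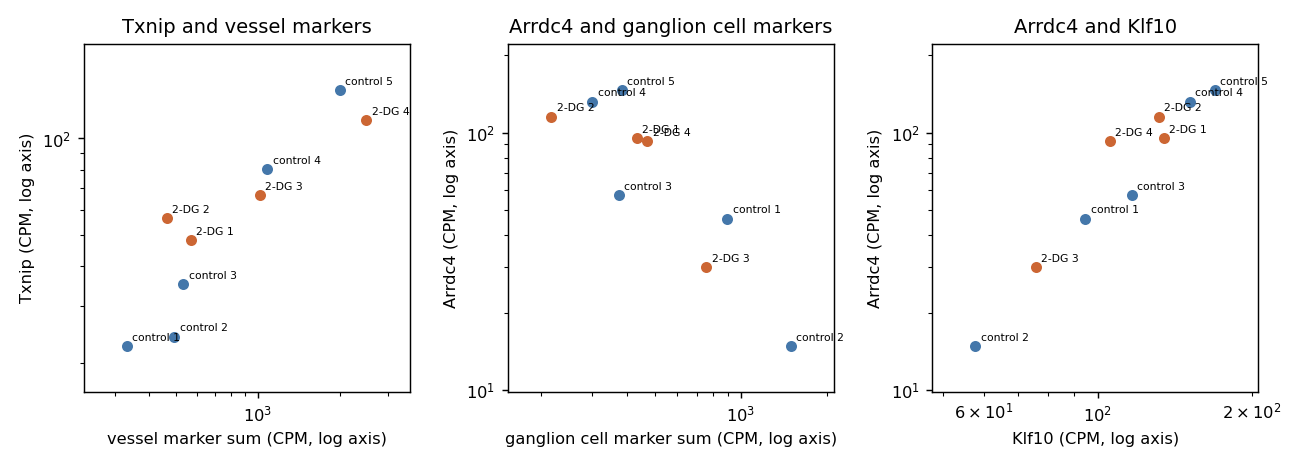
Txnip against the vessel marker sum, Arrdc4 against the ganglion cell marker sum, and Arrdc4 against Klf10, each point 1 of the 9 libraries (control blue, 2-DG orange) and all axes in CPM on a log scale. Txnip is highest in control 5 and 2-DG 4, which have the 2 highest vessel marker sums (2005 and 2508 CPM), and Arrdc4 is lowest in control 2, where Klf10 is also lowest.

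The 5 genes whose pattern over the 9 libraries was most like Txnip, of 14479 protein-coding genes compared, were Il2rg (r = 0.98), Fstl1 (0.98), Serpinh1 (0.98), Gimap1 (0.98) and Clec1a (0.98). Those most like Arrdc4 were Blnk (0.99), Klf10 (0.97), Upk1b (0.96), Ascc3 (0.95) and E130311K13Rik (0.95). Klf10, a transcription factor that is also on the list of MondoA and ChREBP targets, measured 94.6, 57.8, 117, 151 and 169 CPM in control and 135, 132, 75.8 and 106 CPM in 2-DG libraries, and control 2 and 2-DG 3 were lowest in their groups, as for Arrdc4. Arrdc4 ranked 1655 among the genes like Txnip, and Txnip 1265 among those like Arrdc4. The ranking is a description, and genes were not tested in it.

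**Figure D5:**
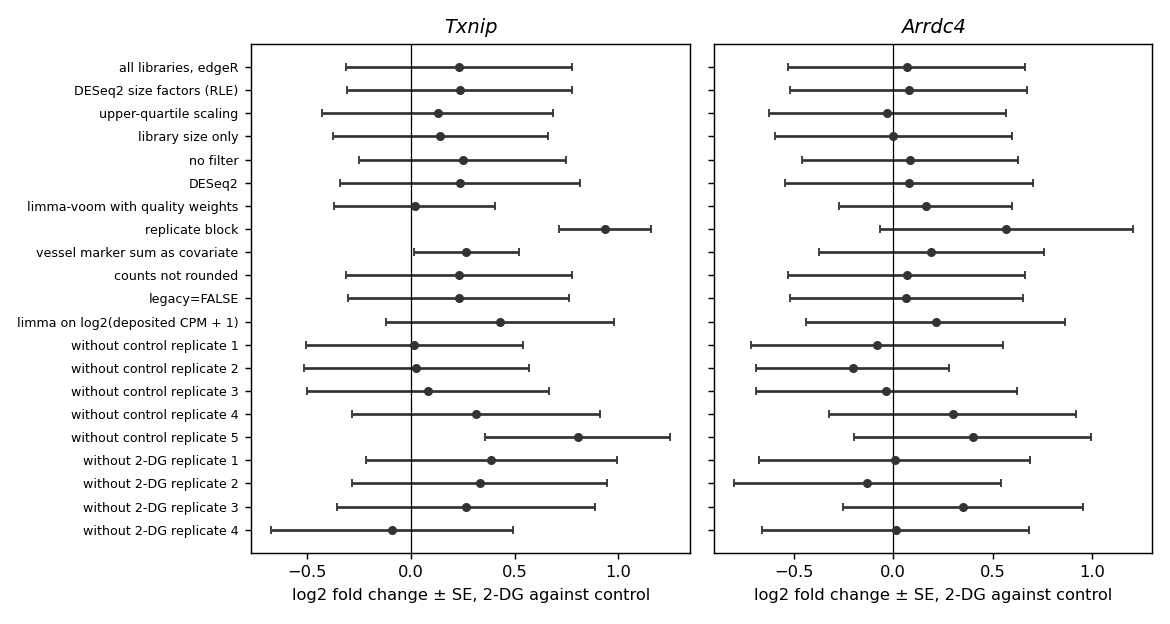
Log2 fold change of 2-DG against control ± standard error for Txnip and Arrdc4, with all libraries in edgeR (top) and under each of the 20 alternatives. Txnip runs from −0.09 to 0.94 and Arrdc4 from −0.20 to 0.57, and neither gene passed the adjusted threshold under any of them.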

How the data were processed

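RNA-seq of 9 mouse retinal explant libraries (5 control, 4 2-DG) was analysed, with groups and replicate numbers taken from the sample titles; the labels give 1 batch. The authors deposited estimated counts per gene and per transcript, made with kallisto on GRCm38 per the submitters' processing notes, with the version and the summary to genes not given in the sources used here; transcript sums came to 91.3% to 103% of the members' gene counts. The authors also deposited a CPM signal table of 12568 genes on a scaled library size, which lacks Mlxipl, and a table of their own comparison (fold changes, F, p and adjusted p-values), which was not used. Counts were rounded (totals moved by at most 0.00377%), filtered with filterByExpr, scaled by TMM and tested with edgeR 4.0.16 glmQLFit and glmQLFTest (R 4.3.3) with group as the only term; p-values were adjusted by Benjamini-Hochberg over all 21049 genes or 62900 transcripts, and scripts were tested on simulated data. CPM are on the TMM-scaled library size, log2 CPM used a prior count of 2, and ratios a pseudocount of 1 CPM. Sequences are RefSeq windows of GRCm38.p6, gene positions GENCODE M21. The members, lists and tests were chosen with earlier results of these data known. By rule the text names the members, other alpha-arrestins, the 4 genes of smallest p in each other list and the 5 genes most like Txnip and Arrdc4. Alternatives were other scalings, filters, tools, a replicate block and leaving out each library. Protein sequences were not analysed here. Depth was 11317734 to 51802249 counts per library, and the CPM given for 3 counts covers counting error only.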

Additional observations from a re-analysis of the deposited data

Results flagged for a closer look

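In 5 of 48 groups of 4 or 5 libraries that were checked, 1 library lay far from the rest by Dixon's ratio, where chance alone gives about 1 in 20. Arrdc3 was at 422 CPM in control 3, against 103 to 179 CPM in the other control libraries. The rod marker sum was 41430 CPM and the cone marker sum 575 CPM in control 2. The cone marker sum was 798 CPM and the microglia marker sum 51.8 CPM in 2-DG 3.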

How the results depend on the processing

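Under 20 alternatives, 0 members passed the adjusted threshold. An unadjusted p under 0.05 was reached by 1 member with limma-voom (Mlx), where 26% of all genes passed, and 1 with the replicate block (Txnip), where 6.42% did. Mlx stayed positive (0.18 to 0.43) and Mlxipl negative (−0.77 to −0.22, 19 alternatives, since the deposited CPM table lacks it). Arrdc4, Arrdc3 and Mlxip turned to −0.029, −0.028 and −0.063 under upper-quartile scaling, and Arrdc3 and Mlxip to −0.022 and −0.038 with library size only. Mlxip was −0.0030 with the replicate block and −0.073 by limma on deposited CPM. Leaving out 1 library each gave −0.091 to 0.80 for Txnip, −0.20 to 0.40 for Arrdc4, −0.19 to 0.47 for Arrdc3 and −0.15 to 0.19 for Mlxip. List genes at an unadjusted p under 0.05 numbered 17 with limma-voom (27.4%, beside 26% of all genes), 7 with the vessel covariate (11.3%, beside 14.2%), 2 on deposited CPM (3.85%, beside 4.82%) and 2 to 7 without 1 library (3.23%, beside 4.63%, without control 4 and 11.3%, beside 12.9%, without 2-DG 4). With limma-voom 2, Fgf21 and Pfkfb3, passed the adjusted threshold (3.23%, beside 5.81%). Member transcripts at an unadjusted p under 0.05 numbered 2 with the replicate block, 0 with library size only and 0 to 2 without 1 library. The shares of all transcripts under these alternatives were not computed, so these counts have no background beside them. Without 1 library the differences in log2 ratio ran from −0.21 to 0.51 (Txnip to Arrdc4), −0.018 to 0.81 (Txnip to Arrdc3) and −0.15 to 0.51 (Arrdc4 to Arrdc3). The correlation of Txnip with the rod marker sum turned to −0.078 with library size only, and the r of Arrdc3 with Mlxip (0.85), Mlxip with Mlxipl (0.92) and Mlxip with Mlx (0.79) then passed 0.05 (exact permutation, adjusted p = 0.0324, 0.0258 and 0.0487). The causes were not tested. The labels do not say whether replicate numbers pair the samples. Deviations of same-numbered libraries correlated at 0.45, −0.15, 0.10 and 0.21, and only replicate 1 correlated best with its own number. This does not settle whether they pair. With the replicate block Txnip had a log2 fold change of 0.94 (standard error 0.22, unadjusted p = 0.00327, adjusted p = 0.525 in edgeR).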

Other observations

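Of the other MondoA and ChREBP targets, 16 could be ranked by their likeness to Arrdc4 over the 9 libraries, a description made after the values were seen. Besides Klf10, Rgs16, a regulator of G protein signalling, followed Arrdc4 (r = 0.92, rank 20 of 14479 genes) and had an r of 0.81 with Txnip. It measured 125, 48.0, 145, 266 and 293 CPM in control and 142, 163, 117 and 243 CPM in 2-DG libraries. The list as a whole did not follow: r with Arrdc4 was above 0 in 6 of 16, with a median of −0.32, against 52.2% of all genes and a median of 0.04.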
